A study of Mus musculus with 2 samples.

Results

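Melanin is made inside melanosomes, and 10 mouse genes of this organelle were followed here in single cells of the embryonic eye: Pmel, Tyr, Tyrp1, Dct, Mlana, Slc45a2, Slc24a5, Oca2, Gpr143 and Trpm1. They were chosen by name, and all 10 were found among the 31053 genes counted. Eye cups were collected at e13.5, after removal of cornea, lens and optic nerve, from Myrf fl/fl mice (control) and from Rx>cre Myrf fl/fl mice (mutant). Myrf encodes a membrane-bound transcription factor, both alleles are floxed in both groups, and only the mutant carries Cre recombinase under Rx, a gene of the early eye field. In each genotype 3 samples were pooled into 1 library, so there was no replicate, no test was made, and all intervals are 95% intervals that cover counting error only. A difference between the libraries therefore cannot be told apart from a difference between pools or preparations.

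Pigment in the eye comes from 2 lineages. The retinal pigment epithelium (RPE) arises from the optic cup, which is the Rx lineage, while melanoblasts, the precursors of melanocytes, come from the neural crest and colonise the tissue around the cup. In both, Pmel fibrils form the scaffold of the melanosome, the enzymes Tyr, Tyrp1 and Dct make the pigment on it, transporters such as Oca2, Slc45a2 and Slc24a5 set its ion content, and the transcription factor Mitf is known to activate many of the genes.

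Unique molecular identifiers (UMIs, 1 per captured transcript) totalled 63483835 in 6039 control barcodes and 75228861 in 6754 mutant barcodes. After filters on genes, mitochondrial UMIs and doublets, 5468 control and 6300 mutant cells were kept, with medians of 11332 and 11154 UMIs. They were clustered without the 10 genes, and clusters were named from markers that do not include them. The RPE-like class held 237 control and 152 mutant cells and the melanoblast-like class 43 and 34, and 12 other classes were named. At a finer clustering (resolution 1.6) the RPE-like class held only 113 and 61 cells, and 119 and 56 when classes were assigned cell by cell. With a coarser clustering, doublets kept, no integration or all variable features it held 237 to 257 control and 149 to 153 mutant cells. The libraries shared 72 barcodes, of which 1 was a control RPE-like cell and none a melanoblast-like cell.

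In RPE-like cells 11 of 15 RPE markers had at least 3 UMIs in each library, and Rpe65, Rgr and Lrat, genes of the mature visual cycle, were at 0. The summed level of the list was 4156 CPM (UMIs of a gene scaled to 1000000 UMIs of the class) in control and 1874 CPM in mutant cells. Pax3, a neural crest marker of melanoblasts, was at 0 in RPE-like cells of both libraries, against 160 and 145 CPM in control and mutant melanoblast-like cells. Of 8 melanoblast markers, 5 in control and 4 in mutant RPE-like cells had at least 3 UMIs, with summed levels of 598 and 393 CPM, and the list includes Mitf and Gpnmb, which RPE also expresses. Sox10 had 15 UMIs in 13 control RPE-like cells and 0 in mutant ones. All 8 markers were detected in melanoblast-like cells, summing to 1715 CPM in control and 1471 CPM in mutant.

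The targeted gene Myrf had 155 UMIs in control RPE-like cells, or 75.4 CPM (64.0 to 88.2), and 30 UMIs in mutant ones, or 20.1 CPM (13.54 to 28.66). The exons that the flox removes are not given in the sources used here, and a 3′ tag outside them would not report the deletion. In melanoblast-like cells Myrf was at 5.81 CPM (5 UMIs) and 6.11 CPM (4 UMIs).

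On GRCm38, the assembly that mm10 denotes, the genes were placed as follows. Pmel is at chr10:128704195-128720238 on the plus strand, Tyr at chr7:87424771-87493512 on the minus strand and Tyrp1 at chr4:80834123-80851719 on the plus strand. Dct is at chr14:118012790-118052244 on the minus strand, Mlana at chr19:29697824-29708634, Slc45a2 at chr15:11000721-11029233 and Slc24a5 at chr2:125068124-125088677, the last 3 on the plus strand. Oca2 at chr7:56239760-56536518, Trpm1 at chr7:64153835-64269775 and Gpr143 at chrX:152781921-152808646 are all on the plus strand. Values below are UMIs over each whole gene.

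Promoter windows of 300 bases (250 before the start and 50 after it, RefSeq, GRCm38.p6) were given for Tyr, Tyrp1, Dct, Slc24a5, Oca2 and Trpm1. They were searched on both strands for CATGTG, the core of the M-box that Mitf is known to bind, for its longer form TCATGTG, which contains CATGTG, and for the palindrome CACGTG. All 6 genes had CATGTG, which occurs in 14.2% of 32851 windows of the same length, and 5 of them had TCATGTG, which occurs in 3.77%. CACGTG was in 1 gene, Trpm1, in the second of its 2 windows, and in 7.15% of all windows. The sites below are shown because these letters are the feature the genes share. Each line runs 5′ to 3′ on the strand of the gene, and capitals mark CATGTG or its reverse complement.
Tyr, chr7:87493516-87493545, minus strand: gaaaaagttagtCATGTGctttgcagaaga
Tyrp1, chr4:80834155-80834184, plus strand: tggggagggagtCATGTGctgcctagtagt
Dct, chr14:118052461-118052490, minus strand: gcttggctgggaCACATGagcccaataaag
Dct, chr14:118052379-118052408, minus strand: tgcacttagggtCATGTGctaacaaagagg
Slc24a5, chr2:125068102-125068131, plus strand: aaggagactgctCACATGattcagcataag
Oca2, chr7:56239561-56239590, plus strand: ttgagcttgctaCACATGgctggaattttc
Trpm1, chr7:64153682-64153711, plus strand: ccaaatcctcatCATGTGcccaccccaaac
Relative to the RefSeq start, the first base of the motif is at -21 in Tyr, -46 in Tyrp1, -232 and -150 in Dct, -13 in Slc24a5, -186 in Oca2 and -141 in the first window of Trpm1. Among the sites shown, the one in Oca2 lacks the longer form. The second Trpm1 window also has a CATGTG match on the other strand, 36 bases after its start and without the longer form, which is not shown. A match is a description of the letters and not evidence of binding.

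Together the 10 genes gave 24441 of 2056509 UMIs in control RPE-like cells, or 1.19% (1.17 to 1.20), and 14207 of 1494481 in mutant ones, or 0.951% (0.935 to 0.966). In melanoblast-like cells the share was 0.765% (0.747 to 0.784) in control and 0.662% (0.642 to 0.682) in mutant. In all cells outside both pigment classes it was 0.0227% and 0.0180%, most of which was Slc24a5. Against those cells, 9 of 10 members were at least 10-fold higher in RPE-like cells of each library, where 2.52% of genes tested in control and 2.48% in mutant reached that fold. In melanoblast-like cells 6 of 10 reached it in each library, against 1.43% and 1.79% of genes tested. These are descriptions, since a class defined by clustering is set against the rest.

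**Figure D1:**
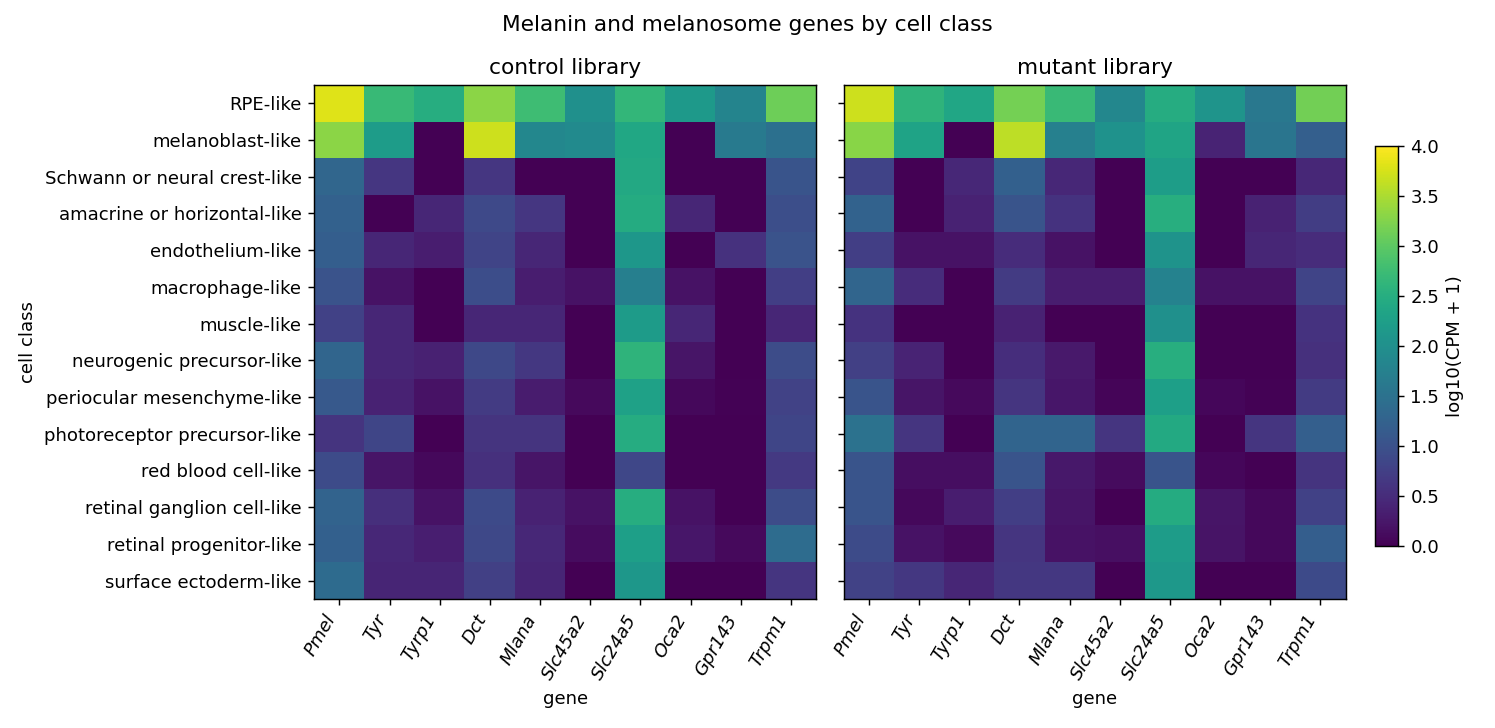
Level of each gene, as log10(CPM + 1), in 14 named cell classes (rows) of the control and mutant libraries. RPE-like cells stand above the 12 non-pigment classes for 9 genes, melanoblast-like cells lack Tyrp1 and nearly lack Oca2, and Slc24a5 is present in nearly every class.

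RPE-like cells came first and melanoblast-like cells second for 6 members in control and 5 in mutant, and for 4 (Pmel, Tyr, Mlana and Gpr143) in both libraries. The share of all genes with this order was not counted, and for Oca2 in mutant the second place rested on 1 UMI. Pmel, the fibril protein, was at 6384 CPM in control RPE-like cells and 2027 CPM in control melanoblast-like cells, and the next class, surface ectoderm-like, was at 23.7 CPM. Tyr, the rate-limiting enzyme, was at 502 and 163 CPM in those classes, with no other class above 5.94 CPM. Mlana, a melanosomal protein that associates with Pmel, was at 582 and 70.9 CPM, with no other class above 3.42 CPM. The mutant library kept the same first 2 classes for these 3 genes. Among the 12 other classes, Slc45a2 was at 0 in 8 of control and 7 of mutant, and Gpr143 was at 0 in 9 and 5. These counts depend on class size: the classes with the most UMIs, retinal progenitor-like and periocular mesenchyme-like, had no member at 0 in either library. The share of all genes at 0 was not counted.

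Melanoblast-like and RPE-like cells differed in which members they held. Dct, dopachrome tautomerase, was higher in melanoblast-like cells, at 4995 CPM (4847 to 5147) against 2018 CPM (1958 to 2081) in control RPE-like cells. In the mutant library it was at 4045 CPM (3892 to 4202) against 1445 CPM (1384 to 1507). The log2 ratio of melanoblast-like over RPE-like cells was 1.31 (1.245 to 1.369) in control and 1.49 (1.40 to 1.57) in mutant. Dct made up 65.3% of the members' UMIs in control melanoblast-like cells and 17.0% in control RPE-like cells.

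Tyrp1, which acts after Dct in eumelanin synthesis, had no UMI in either melanoblast-like class. In the control RPE-like class it had 648 UMIs, or 315 CPM (291 to 340). That is 90.4-fold the level that 3 UMIs over the melanoblast-like class would give (3.48 CPM). The interval of the log2 ratio of melanoblast-like over RPE-like cells had an upper end of -6.20. In the mutant RPE-like class it had 350 UMIs, or 234 CPM (210 to 260), which is 51.1-fold the level of the same floor (4.58 CPM). The upper end of the interval was -5.37 there. Tyrp1 was therefore detected in RPE-like cells and not in melanoblast-like cells of either library.

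Oca2, a melanosomal transporter, was at 144 CPM (128 to 161) in control and 116 CPM (99.8 to 135) in mutant RPE-like cells. It had 0 UMIs in control melanoblast-like cells, where the level of 3 UMIs is 41.3-fold lower and the log2 interval had an upper end of -5.06. In mutant melanoblast-like cells it had 1 UMI, with a log2 ratio of -5.26 (-11.57 to -3.76). Trpm1, a cation channel whose gene hosts a microRNA of pigment cells, was at 1331 and 1407 CPM in control and mutant RPE-like cells and at 29.0 and 15.3 CPM in melanoblast-like cells. Mlana was also lower in melanoblast-like cells, by 3.01 in control and 3.20 in mutant on the log2 scale. These 4 genes were the ones most unequal between the pigment classes.

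The remaining members were closer. Pmel fell from RPE-like to melanoblast-like cells by 1.65 on the log2 scale in control and 1.36 in mutant, and Tyr by 1.62 and 0.94. Slc45a2, a transporter that affects melanosome pH, was at 102 CPM (88.8 to 117) in control RPE-like and 82.5 CPM (64.4 to 104) in control melanoblast-like cells, intervals that overlap. In the mutant library it was higher in melanoblast-like cells, at 107 CPM (83.3 to 135) against 70.9 CPM (58.1 to 85.8), with a log2 ratio of 0.60 (0.13 to 1.04). Gpr143, a receptor on the melanosome membrane, had log2 ratios of -0.50 (-1.09 to 0.002) and -0.11 (-0.91 to 0.57), which counting error does not separate from 0 in either library.

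Counted at a fold of 2, 6 members were lower and 1 was higher in melanoblast-like than RPE-like cells of the control library, where 20.3% of genes tested were lower and 11.9% higher. In the mutant library 5 were lower and 1 higher, against 18.4% and 9.54% of genes tested.

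**Figure D2:**
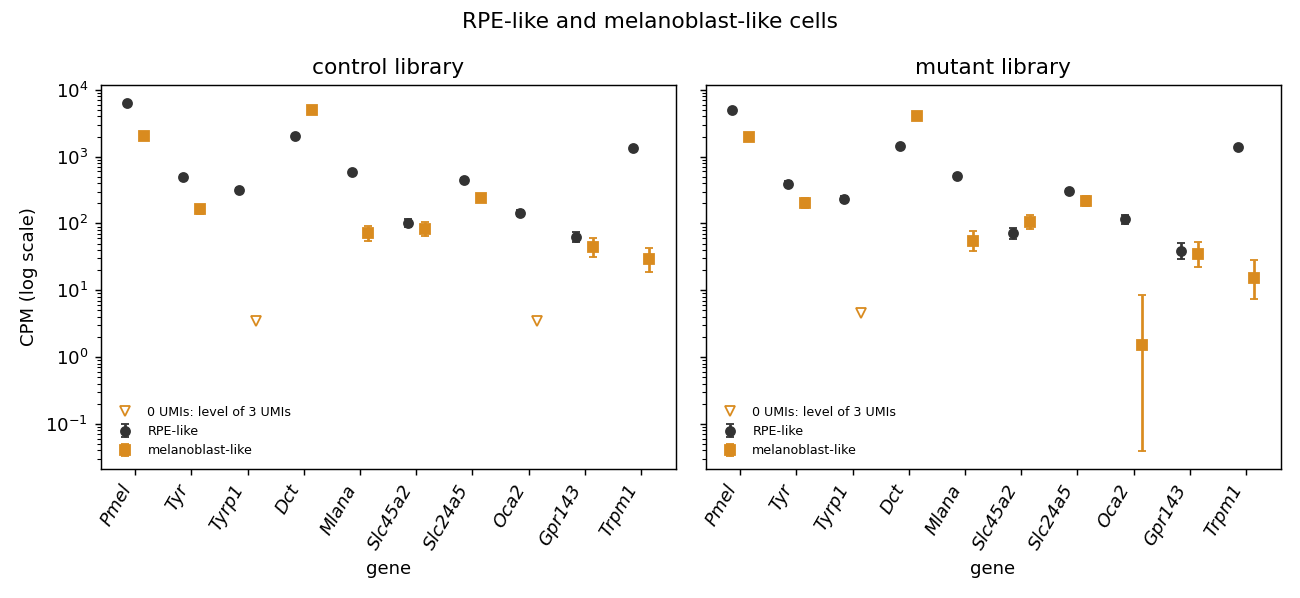
Level of each gene in CPM (log axis) in RPE-like (circles) and melanoblast-like cells (squares) of each library, with exact Poisson 95% intervals of counting error; open triangles mark genes with 0 UMIs at the level of 3 UMIs. Dct lies higher in melanoblast-like cells, while Tyrp1, Oca2, Mlana and Trpm1 lie far lower.

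Slc24a5, a cation exchanger of the melanosome, did not follow the pigment classes. It was at 443 CPM (415 to 473) in control and 304 CPM (276 to 333) in mutant RPE-like cells, but neurogenic precursor-like cells had 392 and 326 CPM and retinal ganglion cell-like cells 305 and 286 CPM. The median over the 12 other classes was 187 CPM in control and 165 CPM in mutant, and red blood cell-like cells were lowest, at 6.15 and 9.94 CPM. Across the 28 combinations of class and library its correlation with the mean of the other members was r = 0.33, whereas the other members had r of 0.72 to 0.97 with theirs.

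The annotation places Myef2, a protein-coding gene on the opposite strand, over 4050 bases of Slc24a5, with 921 exonic bases in common. Across the same 28 points Slc24a5 and Myef2 had r = 0.95. In the 12 other classes the ratio of Slc24a5 to Myef2 UMIs was between 0.943 and 2.27, while it was 4.03 in control and 2.36 in mutant RPE-like cells and 2.16 and 1.99 in melanoblast-like cells. Myef2 itself was at 110 CPM in control and 128 CPM in mutant RPE-like cells. Whether the counting used the strand is not given in the sources used here. It is therefore not known whether any Myef2 reads were counted for Slc24a5, and Slc24a5 values are uncertain in every class. Pmel also shares 34 exonic bases with Cdk2 and 105 with Dgka on the opposite strand.

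**Figure D3:**
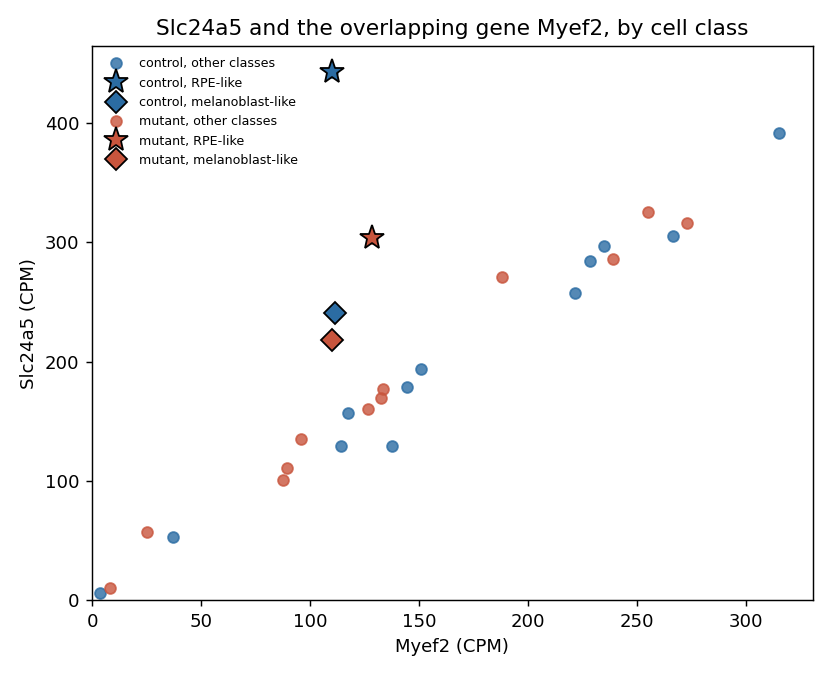
Slc24a5 against Myef2 in CPM, 1 point per cell class and library; stars are RPE-like cells and diamonds melanoblast-like cells. Control RPE-like cells lie highest, at 443 CPM of Slc24a5 and a ratio to Myef2 of 4.03, while the ratios of melanoblast-like cells, 2.16 and 1.99, lie within the range of the other classes, 0.943 to 2.27.

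Outside the pigment classes Trpm1 was higher than Pmel in retinal progenitor-like cells, where Slc24a5 was higher still, at 179 CPM in control and 160 CPM in mutant. Trpm1 had 486 UMIs there in control, or 25.1 CPM (22.9 to 27.4), and 280 in mutant, or 14.6 CPM (12.98 to 16.47), against 5.08 and 3.95 CPM in periocular mesenchyme-like cells. In mutant photoreceptor precursor-like cells it was at 15.4 CPM, from 5 UMIs. The ratio of Trpm1 to Pmel UMIs was 1.59 and 2.06 in retinal progenitor-like cells, 0.418 and 0.398 in periocular mesenchyme-like cells and 0.208 and 0.283 in RPE-like cells. It was also above 1 in control photoreceptor precursor-like cells (2) and mutant surface ectoderm-like cells (1.33), which had 2 and 4 Trpm1 UMIs. Thinned to 3000 UMIs, 6.06% (4.89 to 7.41) of control and 3.21% (2.39 to 4.23) of mutant retinal progenitor-like cells had a Trpm1 UMI. As a background level, it was seen in 1.12% (0.136 to 4.00) and 0.726% (0.150 to 2.11) of red blood cell-like cells, at median depths of 22476.5 and 22723.5 UMIs before thinning, against 10872 and 10277.5 in retinal progenitor-like cells. Without thinning, 15.8% and 10.6% of retinal progenitor-like cells had a Trpm1 UMI, against 4.81% and 5.53% of the deeper red blood cell-like cells.

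In RPE-like cells, 9 of 10 members were lower in the mutant than in the control library, and Trpm1 was not. Over 11186 genes tested, 53.3% were lower. Only Gpr143 was lower by at least 1.5-fold, where 12.3% of genes were, and no member was higher by at least 1.5-fold, where 9.19% of genes were. The median log2 ratio was -0.39 over the members and -0.03 over all genes tested. The members' median depended on which cells were counted and how: it was -0.09 in cells with at most 5% mitochondrial UMIs, where Tyr (0.03) and Tyrp1 (0.37) were not lower, -0.15 as a mean over cells, -0.20 in female cells and -0.65 when classes were assigned cell by cell. The labels give no sex: cells were called female with a UMI of Xist and none of Ddx3y, Uty, Kdm5d or Eif2s3y, and male in the reverse case. Only 41 control and 15 mutant cells of this class were called female. The interval of the ratio lay below 0 for 9 members and for 8.1% of genes tested. The differences were small in size, and at a fold of 1.5 the members' share of calls was near the background.

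Among the structural and enzyme genes, Pmel went from 13128 UMIs, or 6384 CPM (6275 to 6494), in control to 7440 UMIs, or 4978 CPM (4866 to 5093), in mutant cells of this class, giving a ratio of -0.36 on the log2 scale (-0.40 to -0.32). Tyr went from 502 CPM (472 to 534) to 393 CPM (362 to 427), a ratio of -0.35 (-0.50 to -0.20). Tyrp1 had a ratio of -0.43 (-0.62 to -0.24) and Dct one of -0.48 (-0.56 to -0.41). For these 4 genes the intervals of the levels in the 2 libraries did not overlap. Mlana went from 582 CPM (549 to 615) to 519 CPM (483 to 557), intervals that overlap, with a ratio of -0.16 (-0.30 to -0.03).

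Of the transporters and receptors, Gpr143 had 131 UMIs, or 63.7 CPM (53.3 to 75.6), in control and 58 UMIs, or 38.8 CPM (29.5 to 50.2), in the mutant class, giving a ratio of -0.70 on the log2 scale (-1.19 to -0.26). Slc24a5 had a ratio of -0.54 (-0.71 to -0.38), Slc45a2 one of -0.52 (-0.88 to -0.18) and Oca2 one of -0.30 (-0.58 to -0.03). Trpm1 had 2737 UMIs, or 1331 CPM (1282 to 1382), in control and 2102 UMIs, or 1407 CPM (1347 to 1468), in mutant cells, a ratio of 0.08 (-0.003 to 0.16) whose interval reached just below 0. Trpm1 took 11.2% of the members' UMIs in control and 14.8% in mutant RPE-like cells.

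The difference was seen in the deeply sequenced cells. RPE-like cells fell into a deep and a shallow set, and a limit of 3000 UMIs, chosen with these values known, left 130 control and 80 mutant cells at or above it, with medians of 15277.5 and 16606.5 UMIs, and 107 and 72 below it, with medians of 1067 and 1181. The deep cells held 93.7% and 93.9% of the class UMIs. In them 9 members were lower in mutant, with a median log2 ratio of -0.40, where 53.2% of 11035 genes were lower, and 1 was lower by at least 1.5-fold, where 12.7% of genes were. In the shallow cells 2 members were lower and 8 higher, with a median of 0.12, where 47.5% of 3419 genes were lower, and 1 was lower by at least 1.5-fold, where 16.4% were.

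Pmel was at 5201 CPM in control and 5228 CPM in mutant shallow cells, a log2 ratio of 0.01 (-0.16 to 0.18), whose interval does not reach the -0.38 (-0.42 to -0.34) of the deep cells. Dct had 0.06 (-0.31 to 0.41) in shallow and -0.51 (-0.59 to -0.43) in deep cells. Trpm1 was at 1504 CPM in control and 2048 CPM in mutant shallow cells, a ratio of 0.45 (0.15 to 0.74). For the 8 members other than Pmel and Trpm1, at most 156 UMIs per library lay behind a shallow value and the intervals are wide. The part of depth in the difference between the libraries was not tested.

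Red blood cell markers also differed between the libraries. Of 8 listed, 6 had at least 3 UMIs in RPE-like cells of each library, with a summed level of 913 CPM in control and 1376 CPM in mutant. Hbb-y, an embryonic globin, was at 354 CPM (329 to 381) and 672 CPM (631 to 715), and the red blood cell-like class held 208 control and 488 mutant cells. With mitochondrial, haemoglobin and ribosomal protein genes left out of the total, the members' median was -0.36 in this class and 9 of them were lower in mutant.

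**Figure D4:**
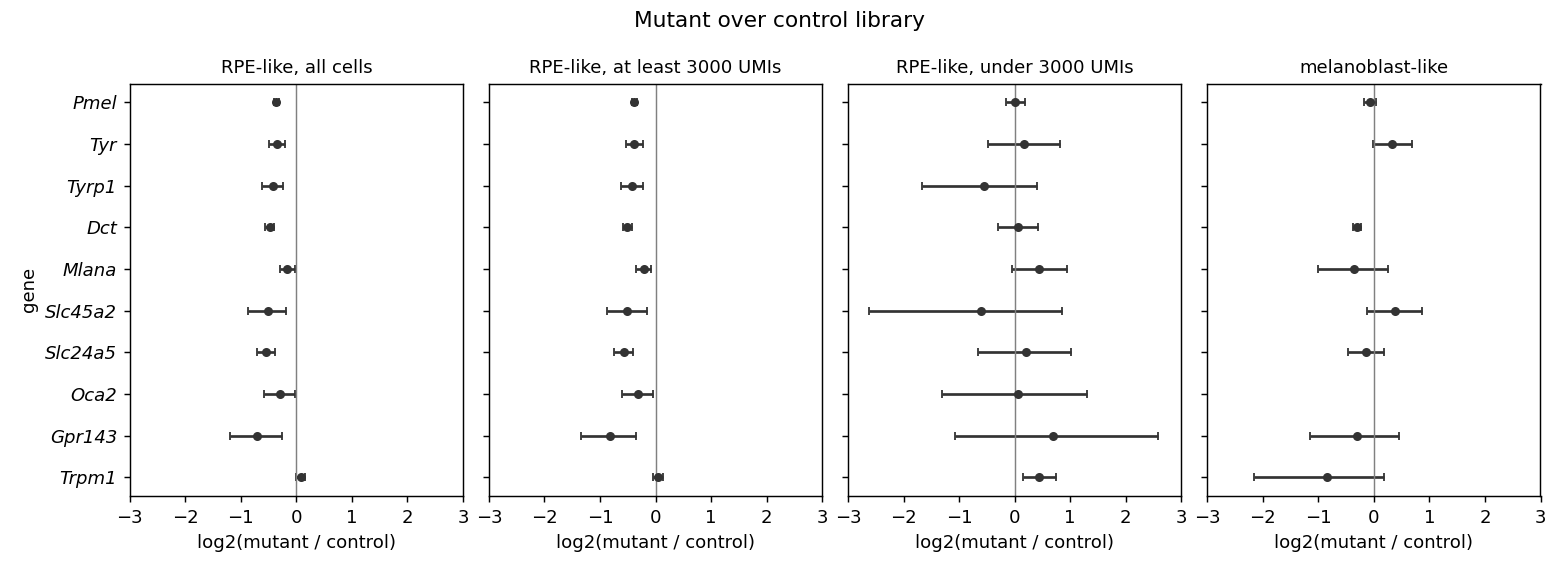
Log2 ratio of mutant over control for each gene that reached 10 UMIs in the sum of the libraries, in all RPE-like cells, those with at least 3000 and with under 3000 UMIs, and melanoblast-like cells; bars are exact 95% intervals of counting error. In deep RPE-like cells 9 genes lie below 0, in shallow ones 2 do.

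In melanoblast-like cells 8 members reached 10 UMIs when the libraries were added, 6 of which were lower and 2 higher in mutant, with a median log2 ratio of -0.22, against -0.02 over 8466 genes tested. Dct was the one whose interval left out 0, at -0.30 (-0.37 to -0.23). The shares of all genes tested that were lower, or whose interval left out 0, were not counted in this class. Pmel was at 2027 CPM (1933 to 2124) in control and 1935 CPM (1830 to 2045) in mutant, a ratio of -0.07 (-0.17 to 0.04). Tyr had a ratio of 0.33 (-0.02 to 0.68) and Slc45a2 one of 0.37 (-0.12 to 0.87). Trpm1, with 25 and 10 UMIs, was the member lower by at least 1.5-fold, where 13.7% of genes were, and none was higher by that fold, where 9.89% were. Red blood cell markers summed to 299.7 CPM in control and 3729 CPM in mutant melanoblast-like cells, with 6 of 8 detected and Alas2 at 0 in each, and Hbb-y alone went from 121 CPM (98.7 to 146) to 2200 CPM (2087 to 2316). Their part in the result was not tested beyond the total: without mitochondrial, haemoglobin and ribosomal protein genes in it, Dct had a ratio of -0.28 (-0.35 to -0.21) and Tyr one of 0.36 (0.004 to 0.71). With 43 and 34 cells, differences of this size were not detectable for most members.

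Single RPE-like cells rarely showed all the genes at once, and at 3000 UMIs per cell genes of low level are mostly missed. Gpr143, for one, was at 63.7 CPM in control and 38.8 CPM in mutant cells of this class, so the counts of members depend on depth. Thinned to 3000 UMIs, a control cell had a median of 6 members detected (quartiles 5 and 7, range 2 to 10) and a median of 33 member UMIs (quartiles 25 and 44.8, range 4 to 87). A mutant cell had a median of 6 members (range 2 to 9) and 27.5 member UMIs (quartiles 21 and 34, range 4 to 72). Melanoblast-like cells had medians of 3 and 4 members and of 21.5 and 21 member UMIs. Before thinning, no member UMI was found in 3 of the 237 control cells and 1 of the 152 mutant cells of the RPE-like class.

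**Figure D5:**
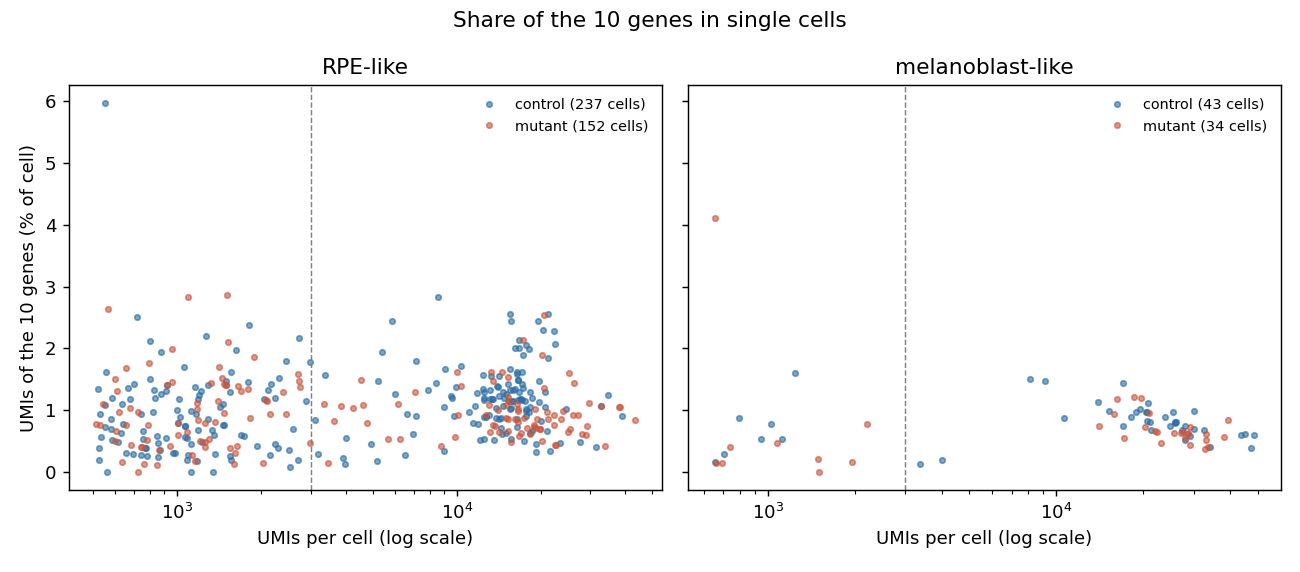
UMIs of the 10 genes as a percentage of each cell's UMIs, against the cell's UMIs (log axis), 1 point per cell; the dashed line marks 3000 UMIs. RPE-like cells form a shallow and a deep set in both libraries, and nearly all cells of both classes lie between 0 and 3%.

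By cell, at 3000 UMIs, Pmel was detected in 97.7% (93.4 to 99.5) of RPE-like cells in control and 98.8% (93.2 to 99.97) in mutant, and in 1.69% and 1.94% of red blood cell-like cells. Dct was in 94.6% and 88.8%, Trpm1 in 87.7% and 91.2%, and Tyr in 73.8% and 75%. Tyrp1 was in 55.4% (46.4 to 64.1) and 47.5% (36.2 to 59.0), and Gpr143, the least often detected, in 15.4% (9.66 to 22.8) and 8.75% (3.59 to 17.2). In red blood cell-like cells none of these shares passed 1.94%. Slc24a5 was in 73.1% (64.6 to 80.5) of RPE-like cells in control and 56.2% (44.7 to 67.3) in mutant, and in 36.2% and 32.2% of retinal progenitor-like cells. Median depths before thinning were 6028 and 4056.5 UMIs in RPE-like cells.

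Measured correlations between pairs of members from cell to cell were low. Over 45 pairs in thinned RPE-like cells, which share a library and a depth, the median correlation of log values was r = 0.19 in 130 control cells (range -0.07 to 0.45) and r = 0.12 in 80 mutant cells (range -0.14 to 0.40). The highest was Dct with Mlana in control and Tyr with Slc24a5 in mutant. With few UMIs per gene and cell these are descriptions, and the part of counting error in the low values was not tested.

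Beyond the 10 genes, 55 other genes of pigment cell regulation, melanosome assembly and transport were listed, of which 54 were matched and 48 reached 10 UMIs in the RPE-like class. In the mutant 34 were lower and 14 higher, 10 and 4 of them by at least 1.5-fold (12.3% and 9.19% of all genes tested), with a median log2 ratio of -0.20 against -0.03 over all genes, of which 53.3% were lower. Intervals lay below 0 for 13 of the 48 and above 0 for 2, against 8.1% and 6.46% of all genes tested. All 4 genes of Pmel processing and sorting were lower with intervals below 0, among them Bace2, the protease that cleaves Pmel, at -0.48 (-0.68 to -0.28), and the endosomal tetraspanin Cd63 at -0.22 (-0.30 to -0.14), and the many UMIs of some of them, 3372 for Cd63 in control, make such intervals narrow. Of 22 genes of cargo sorting to the melanosome 13 were lower and 9 higher, and of 7 movement and transfer genes tested 6 were lower and 1 higher. Mitf was at 176 CPM (158 to 195) in control and 154 CPM (135 to 175) in mutant, a ratio of -0.19 (-0.43 to 0.05), and Otx2, a regulator of RPE identity, had -0.38 (-0.56 to -0.21).

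The 5 lowest ratios among the listed genes with at least 50 UMIs were those of Bloc1s4 at -1.16 (-1.91 to -0.53), Sox9 at -0.90 (-1.23 to -0.59), Gpnmb at -0.82 (-1.01 to -0.64), Atp7a at -0.66 (-1.49 to 0.06) and Tspan10 at -0.54 (-0.82 to -0.28). Bloc1s4 is a subunit of the BLOC-1 sorting complex, Gpnmb a relative of Pmel and Atp7a the copper pump that loads Tyr. The 5 highest were Slc7a11 at 1.17 (0.56 to 1.84), Ap3m1 at 0.54 (-0.17 to 1.26), Bloc1s2 at 0.40 (-0.02 to 0.82), Stx12 at 0.37 (-0.14 to 0.89) and Ap3b1 at 0.30 (-0.24 to 0.83). Slc7a11, the cystine transporter, was the one of these 5 whose interval left out 0, at 17.0 CPM in control and 38.8 CPM in mutant.

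Over the 14 named classes of both libraries, the 8 other genes with the pattern most like the members' mean were Tspan10 (r = 0.96), Gpnmb (0.93), Ptgds (0.92), Myrf (0.90), Slc16a8 (0.90), Slc6a15 (0.88), C2 (0.87) and Ttr (0.87), among 13490 genes. Ttr, Slc16a8 and Gpnmb served as class markers. Ptgds was at similar levels in both pigment classes, with 329 CPM in control RPE-like and 369 CPM in control melanoblast-like cells. Slc16a8, a lactate transporter of the RPE, was at 90.0 CPM in control and 14.1 CPM in mutant RPE-like cells and at 1.16 and 1.53 CPM in melanoblast-like cells. Ttr, a carrier of thyroxine and retinol, was at 2471 and 768 CPM in RPE-like cells.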

How the data were processed

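Single cells of e13.5 eye cups were sequenced as 3′ libraries. The authors counted UMIs with Cell Ranger 7.1.0 on mm10, and the deposited values are raw counts per gene and barcode. The submitters' processing notes also name Seurat 4.1.1. The paper's upper limit of 2000 UMIs per cell was run as an alternative. Cells kept had at least 200 genes and at most 15% mitochondrial UMIs, and Scrublet (scanpy 1.11.5, expected rate 5%) removed 0.924% and 1.16% as doublets. Seurat 5.3.0 integrated and clustered the cells (2000 variable features without the 10 genes, 30 dimensions, resolution 0.8), giving 29 clusters, of which 24 were named. Naming thresholds were set after the clusters were seen, and 861 control and 726 mutant cells stayed unnamed. UMIs were summed by class and library, with exact Poisson, conditional binomial and Clopper-Pearson intervals (scipy 1.17.1). Log2 ratios had 1 UMI added to each sum, and genes needed at least 10 UMIs over both groups. The comparison was run on simulated Poisson counts, which hold counting error only and no difference between pools or preparations. The members, lists and tests were chosen with earlier results of these data known. The genes named were the members, the 5 highest and 5 lowest listed pathway genes and the 8 most alike genes. Asip was not matched. Proteins, and promoter windows of Pmel, Mlana, Slc45a2 and Gpr143, were not used here.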

Additional observations from a re-analysis of the deposited data

How the results depend on the processing

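No paired analysis was possible because the labels carry no replicate numbers. Leaving out a replicate was not possible with 1 library per genotype. Limits of under 3000 UMIs and removal of shared barcodes were chosen after seeing the data. Of 9 members lower in mutant RPE-like cells, 2 were lower among cells with at most 2000 UMIs (91 control and 62 mutant cells) and 2 under 3000 UMIs. The members' median log2 ratio, -0.39, became 0.16 and 0.12 there, -0.092 at 5% mitochondrial UMIs, -0.20 in female cells, -0.15 as a mean over cells (1 CPM added) and -0.65 by a rule per cell. Members at least 1.5-fold lower, 1 in all, were 0 at 2-fold, at most 2000 UMIs, 5% mitochondrial UMIs and as a mean over cells, 2 in male cells, 3 at most 20000 UMIs and at resolution 1.6, and 6 by the rule per cell. The share of all genes called was not counted in these settings, so these counts have no background beside them. The rule per cell held 119 control and 56 mutant RPE-like cells. Members higher in melanoblast-like cells, 1 in control and 2 in mutant, became 3 and 1 at most 2000 UMIs and 5 and 1 under 3000 UMIs, and the control count was 2 at most 20000 UMIs and at 5% mitochondrial UMIs. Only 7 control and 8 mutant melanoblast-like cells had at most 2000 UMIs, and 7 and 9 had under 3000 UMIs. The share of all genes higher was not counted in these settings. Thinning to 1000 UMIs took the median share of RPE-like cells with a UMI from 68.8% to 32.9% in control and from 54.4% to 27.8% in mutant. Single log2 ratios in RPE-like cells turned positive at most 2000 UMIs for Dct (9.07e-05), Mlana (0.60), Oca2 (0.44), Pmel (0.024), Slc24a5 (0.16) and Tyr (0.35). Under 3000 UMIs they did for Dct (0.057), Gpr143 (0.70), Mlana (0.45), Oca2 (0.058), Pmel (0.0084), Slc24a5 (0.20) and Tyr (0.18). As a mean over cells they did for Gpr143 (0.27), Mlana (0.089) and Tyr (0.022), in female cells for Mlana (0.19), Oca2 (0.075) and Tyr (0.057), and at 5% mitochondrial UMIs for Tyr (0.030) and Tyrp1 (0.37). Dct in melanoblast-like cells was at 0.074 in male cells, of which each library held 10. The cause was not tested.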
